A study of Mus musculus with 4 samples.

Results

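The uterine epithelium was described by 37 genes of its luminal and glandular cells, taken from the 55421 genes counted in uteri of pregnant mice. The genes were picked by name and sorted by role into 9 genes of cell junctions, 4 keratins, 7 genes used as gland markers, 6 genes used as luminal markers, 5 regulators of epithelial identity and 6 genes of surface proteases and membrane trafficking. Of the 37 genes, 35 had a level of at least 1 CPM (counts scaled to a common library total) in at least 2 libraries and were tested among 14492 genes, and Calb1 and Ihh did not reach that level. The libraries came from 2 WT mice (C57BL/6J) and 2 Qa-2- mice (B6.K1, strain B6.Cg-H2b3/FlaCmwJ), with 1 library per mouse. RNA was isolated from a portion of the frozen, powdered uterus, and where in the organ that portion lay is not given in the sources used here. All 4 mice were pregnant, collected at E18.5 and mated within their own strain, so that a Qa-2- mother carried Qa-2- fetuses. B6.K1 is an H2 congenic strain, and lack of Qa-2 cannot be told apart from the rest of the H2 segment or from other strain differences in these samples. Matings were set up with young adult mice, and the labels give no age for the single mice.

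The uterus is lined by a single layer of luminal epithelium, which folds into the stroma as tubular glands. Luminal cells meet the embryo at implantation, and gland cells secrete factors such as leukemia inhibitory factor that the embryo and the stroma depend on. Both kinds of cell are held together by E-cadherin and by tight junctions of claudins and occludin, and both carry keratin filaments of simple epithelia. In the last days of pregnancy the epithelium is a thin lining within a large muscular wall, so its genes are read here against a background of muscle, stroma and vessels.

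The epithelial part of the label was borne out in every library, with Epcam at 110 CPM or above and Cdh1 at 73.3 CPM or above. These general markers do not tell luminal from glandular cells. Of the genes used as gland markers, Wfdc2 was at 372 to 758 CPM and Prom1 at 482 to 1615 CPM. However, Foxa2 was at 0.52 to 1.34 CPM and Ovgp1 at 1.10 to 1.74 CPM, and the luminal markers Calb1 and Ihh were too low to test. CPM values are on library sizes scaled by TMM, and total counts lay between 33286390 and 41041299 per library, for which 3 counts equal 0.0747 to 0.0858 CPM. H2-Q6 and H2-Q7, which encode Qa-2 and share reads with near-identical neighbours, had 1192 to 6318 counts in the WT libraries and 2 to 4 counts in the Qa-2- libraries, as labelled. One library stood apart for the epithelial genes: WT replicate 2 was the lowest of the 4 libraries for 33 of the 35 tested genes, against 26.1% of all genes tested. At the other end, Qa-2- replicate 2 was the highest for 30 of 35, against 28.5% of all genes. The median ratio of WT replicate 1 to WT replicate 2 was 1.85 over the 35 genes, and 29 of them differed by more than 1.5 times in that direction. Values without WT replicate 2 are therefore given for each role group, for the genes with the largest differences, and where that library decided a value, and the plot of fold changes shows them for every tested gene.

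All 35 tested genes had a log2 fold change of Qa-2- over WT above 0, whereas 48.9% of all genes did. The median log2 fold change was 0.87 for the epithelial genes and -0.01 for all genes tested, and the values of single genes ranged from 0.04 for Ovgp1 to 1.99 for Cftr. In 26 of the 35 genes both Qa-2- libraries lay above both WT libraries, where 24.5% of all genes showed this order, and in the other 9 the groups overlapped. None of the 35 genes passed an adjusted p of 0.05 in the quasi-likelihood test of edgeR, adjusted by Benjamini-Hochberg (0.0% of all genes; smallest adjusted p over the epithelial genes 0.246). At an unadjusted p under 0.05, 12 of the 35 were higher in Qa-2- by the same test, against 7.09% of all genes. DESeq2's Wald test called 7 of the 35 higher in Qa-2- at an adjusted p under 0.05, against 2.04% of all genes, and these were Cftr, Lif, Esrp2, Elf3, Msx1, Krt19 and Tjp3. Without WT replicate 2 the median log2 fold change was 0.45 and DESeq2 called only Cftr, against 1.22% of all genes. Without WT replicate 1 the median was 1.49 and DESeq2 called 24 genes, against 3.55% of all genes. Without Qa-2- replicate 1 it called 4, against 1.36%, and without Qa-2- replicate 2 it called none of the 35, against 0.134%. These shares are of the genes to which DESeq2 gave an adjusted p in that fit. Each of the 7 DESeq2 calls was thus lost without Qa-2- replicate 2. The counts over the 35 genes include Foxa2, which passed the filter only through the Qa-2- libraries, and without it 34 of 34 genes were above 0, 25 did not overlap, 11 had an unadjusted p under 0.05 by edgeR, and the median was 0.86. In whole tissue, fewer epithelial cells in WT and less RNA per epithelial cell in WT cannot be told apart.

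**Figure D1:**
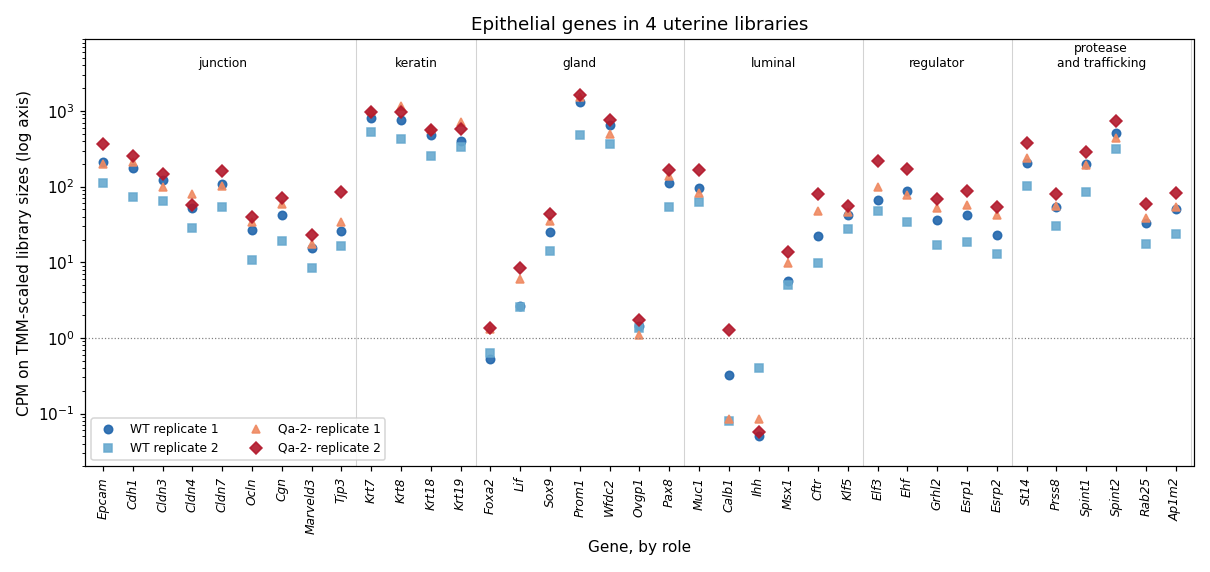
CPM of the 37 epithelial genes in each of the 4 libraries (log axis), grouped by role, with 1 point per library; WT in blue and Qa-2- in orange and red, and the dotted line at 1 CPM. The light blue squares of WT replicate 2 lie lowest for 33 of the 35 tested genes, and the dark red diamonds of Qa-2- replicate 2 lie highest for 30.

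The promoters of the set were read to show which letters the genes have in common. RefSeq gave the bases before the start of 25 of the 37 genes (32 windows of 250 bases, GRCm38.p6), and 21 letter strings were searched on both strands. The string CACCTG, a form of the E-box, occurred in 18 of these 25 genes (72.0%) and in 19.4% of the 27025 genes with a promoter. The string AACNNGTT, the outer letters of the grainyhead motif, occurred in 5 of the 25 genes (20%), namely Cgn, Msx1, Muc1, Prom1 and Rab25, and in 4.11% of all. ACCTGTT, which can overlap both, was in 6 of 25 (24.0%) against 3.62%, and AACCNGTT, a narrower spelling of AACNNGTT, was in 4 of 25 (16.0%) against 2.0%. CACCTG and AACNNGTT were singled out after the matches had been seen, and a match describes letters and not a bound site. Windows of 6 genes are shown, from 3 junction genes and 3 luminal genes, because they span the range from several matches to none. They are written 5′ to 3′ on the strand of the gene and end at the base before the RefSeq start, with CACCTG or its complement CAGGTG and AACNNGTT in capitals.
Epcam promoter, chr17:87635729-87635978 (+): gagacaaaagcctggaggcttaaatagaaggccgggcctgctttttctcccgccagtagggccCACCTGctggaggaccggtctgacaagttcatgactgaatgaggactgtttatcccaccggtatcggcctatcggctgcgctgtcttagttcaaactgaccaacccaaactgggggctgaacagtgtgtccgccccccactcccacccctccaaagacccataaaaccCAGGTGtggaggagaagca
Cldn4 promoter, chr5:134946935-134947184 (-): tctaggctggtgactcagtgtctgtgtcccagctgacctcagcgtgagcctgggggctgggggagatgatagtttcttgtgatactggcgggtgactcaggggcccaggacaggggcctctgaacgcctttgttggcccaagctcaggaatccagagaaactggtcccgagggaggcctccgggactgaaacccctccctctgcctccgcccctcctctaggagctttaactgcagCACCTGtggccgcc
Tjp3 promoter, chr10:81291582-81291831 (-): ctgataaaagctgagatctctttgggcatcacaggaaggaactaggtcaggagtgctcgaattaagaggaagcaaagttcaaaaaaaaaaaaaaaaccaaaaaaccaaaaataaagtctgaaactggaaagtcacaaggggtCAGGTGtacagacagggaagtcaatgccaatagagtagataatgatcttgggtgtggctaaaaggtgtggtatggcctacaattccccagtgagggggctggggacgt
Muc1 promoter, chr3:89228806-89229055 (+): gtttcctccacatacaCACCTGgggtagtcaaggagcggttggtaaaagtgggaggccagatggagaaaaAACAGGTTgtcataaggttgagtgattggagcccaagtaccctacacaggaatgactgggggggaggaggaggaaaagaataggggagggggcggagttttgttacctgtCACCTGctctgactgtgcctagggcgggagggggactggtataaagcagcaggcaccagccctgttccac
Msx1 promoter, chr5:37824586-37824835 (-): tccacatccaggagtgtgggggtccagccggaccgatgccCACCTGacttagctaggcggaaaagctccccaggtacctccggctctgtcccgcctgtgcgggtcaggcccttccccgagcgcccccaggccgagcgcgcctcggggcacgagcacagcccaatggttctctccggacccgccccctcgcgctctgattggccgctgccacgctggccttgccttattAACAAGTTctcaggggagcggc
Cftr promoter, chr6:18170437-18170686 (+): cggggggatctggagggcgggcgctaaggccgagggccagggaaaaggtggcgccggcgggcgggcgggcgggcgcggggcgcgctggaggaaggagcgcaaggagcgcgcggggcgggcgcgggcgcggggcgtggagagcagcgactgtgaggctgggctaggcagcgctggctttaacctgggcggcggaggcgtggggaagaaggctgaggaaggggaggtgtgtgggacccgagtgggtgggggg

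The windows of Epcam and Muc1 held CACCTG or its complement 2 times each, those of Cldn4, Tjp3 and Msx1 held it 1 time each, and that of Cftr held none. Muc1 and Msx1 also held AACNNGTT 1 time each. Cftr was thus without either string in this window. Whether matches go with the difference between the genotypes was not tested.

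Among the 9 junction genes, all log2 fold changes were above 0 with a median of 0.82 (0.43 without WT replicate 2), and both Qa-2- libraries were above both WT libraries in 6, set against 48.9% and 24.5% of all genes. Tjp3 (chr10:81273207-81291581), which encodes the tight junction scaffold ZO-3, was at 26.0 and 16.5 CPM in WT replicates 1 and 2, and at 34.1 and 84.1 CPM in Qa-2- replicates 1 and 2. The highest value was a single library, and the groups did not overlap. Its log2 fold change was 1.48 ± 0.48 (SE), with an adjusted p of 0.294 by edgeR and 0.0355 by DESeq2, and was 1.19 without WT replicate 2. Without Qa-2- replicate 2 it was 0.69, with an adjusted p of 0.999 by DESeq2. Cgn, encoding cingulin, which links tight junctions to actomyosin, was at 42.4 and 19.3 CPM in WT and at 58.1 and 70.2 CPM in Qa-2-. The spread between the WT mice was larger than that between the Qa-2- mice, and the log2 fold change was 1.06 ± 0.39 (SE; edgeR adjusted p = 0.314) and 0.60 without WT replicate 2.

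Cdh1 (chr8:106603351-106670246), which encodes E-cadherin, was at 175 and 73.3 CPM in WT and at 214 and 256 CPM in Qa-2-. The WT mice lay further apart (175 against 73.3) than WT replicate 1 and either Qa-2- mouse. Its log2 fold change of 0.92 ± 0.43 (SE) did not pass the test (edgeR adjusted p = 0.382) and was 0.43 without WT replicate 2. Ocln, the tight junction protein occludin, showed the same order with 26.8 and 10.7 CPM in WT and 33.8 and 39.2 CPM in Qa-2-. Marveld3, another transmembrane protein of the tight junction, was at 15.2 and 8.4 CPM in WT and at 17.7 and 23.2 CPM in Qa-2-, so that its nearest WT and Qa-2- libraries lay close together. Epcam (chr17:87635979-87651129), the adhesion molecule that is widely used to sort epithelial cells, was at 211 and 110 CPM in WT and at 200 and 365 CPM in Qa-2-. Here the groups overlapped, because Qa-2- replicate 1 was below WT replicate 1. Epcam was the only gene of the set on chromosome 17, where H2-Q7 also lies, and was 52.19 Mb away from it.

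The 3 claudins form the paracellular seal of simple epithelia, and they did not share 1 order of libraries. Cldn4 was at 52.0 and 28.1 CPM in WT and at 78.7 and 57.6 CPM in Qa-2-, and was the only junction gene that was higher in Qa-2- replicate 1 than in Qa-2- replicate 2. Its neighbour Cldn3, 39.28 kb away on chromosome 5, was at 124 and 64.5 CPM in WT and at 98.1 and 145 CPM in Qa-2-, with overlapping groups. Cldn7 overlapped too, with 109 and 53.8 CPM in WT and 102 and 163 CPM in Qa-2-. Their log2 fold changes were 0.77 for Cldn4, 0.71 for Cldn7 and 0.37 for Cldn3, and that of Cldn3 was -0.02 without WT replicate 2.

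All 4 keratins of simple epithelia had both Qa-2- libraries above both WT libraries, as did 26 of the 35 tested genes and 24.5% of all genes. All 4 were lowest in WT replicate 2. Their median log2 fold change was 0.71 (0.40 without WT replicate 2). Krt19 (chr11:100140810-100148665), the smallest type I keratin, was at 404 and 337 CPM in WT and at 723 and 572 CPM in Qa-2-. The WT values were close to each other, and the log2 fold change was 0.80 ± 0.25 (SE; adjusted p = 0.286 by edgeR and 0.0327 by DESeq2). Krt8 and Krt18, the type II and type I partners of one filament, lie 23.7 kb apart on chromosome 15. Krt8 was at 759 and 429 CPM in WT and at 1160 and 977 CPM in Qa-2-, and Krt18 at 484 and 256 CPM in WT and at 571 and 565 CPM in Qa-2-. Both were lowest in WT replicate 2. Krt7, a type II keratin of ducts and glands, was at 797 and 528 CPM in WT and at 1003 and 958 CPM in Qa-2-. In contrast to the other role groups, no keratin was highest in Qa-2- replicate 2. Read pairs that mapped to several places were not counted, which can lower the counts of keratin genes with near-identical processed copies.

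CPM per kb of exon divides by all annotated exon bases of a gene, so an order between genes on this scale also depends on the annotation. On it, Wfdc2 was highest of the set in WT with a mean of 452. Krt8 followed with 303, Krt18 with 257, Krt19 with 200 and Prom1 with 125. Krt7, with 7049 annotated exon bases, was at 93.9, although its mean CPM in WT was above that of Krt8 (662 against 594). In Qa-2- the means were 548 for Wfdc2, 546 for Krt8, 395 for Krt18, 349 for Krt19 and 219 for Prom1. Read within each library, Krt8 was above Krt18 and Krt19 above Prom1 in all 4 mice. Wfdc2 was above Krt8 in 3 of 4, the exception being Qa-2- replicate 1 with 432 and 592, and Krt18 was above Krt19 in 3 of 4, the exception being WT replicate 2 with 178 and 182. At the low end of the tested genes, Foxa2 was at 0.245 CPM per kb in WT and 0.557 in Qa-2-, Ovgp1 at 0.389 and 0.399, and Lif at 0.605 and 1.67.

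The median log2 fold change of the 7 genes used as gland markers was 0.88 (0.45 without WT replicate 2), and 5 of them had groups without overlap, against 24.5% of all genes. Without Foxa2, which passed the filter only through Qa-2-, the median was 0.84 (0.35 without WT replicate 2), and 4 of 6 had groups without overlap. Lif (chr11:4257557-4272514) encodes leukemia inhibitory factor, the cytokine of uterine glands that is required for implantation. It was at 2.67 and 2.60 CPM in WT and at 5.97 and 8.52 CPM in Qa-2-, from 107 and 98 counts against 212 and 298 counts. The 2 WT libraries agreed closely, and leaving out WT replicate 2 left the value almost as it was (1.44). The log2 fold change was 1.46 ± 0.31 (SE), with an adjusted p of 0.246 by edgeR, the smallest of the set, and 0.00597 by DESeq2. The DESeq2 call was lost whichever library was left out, with adjusted p-values from 0.0953 (without WT replicate 1) to 0.999 (without Qa-2- replicate 2). Foxa2, the transcription factor that glands need to form and to make Lif, was at 0.52 and 0.64 CPM in WT and at 1.30 and 1.34 CPM in Qa-2-. It entered the test only through the Qa-2- libraries, rests on 21 to 47 counts, and its log2 fold change of 1.18 is therefore given as a description.

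Sox9, a transcription factor of gland progenitors, was at 25.3 and 13.9 CPM in WT and at 35.7 and 42.9 CPM in Qa-2- (log2 fold change 1.0 ± 0.32, SE; edgeR adjusted p = 0.291; 0.63 without WT replicate 2). Pax8, a transcription factor of the Müllerian tract epithelium, was at 111 and 53.8 CPM in WT and at 139 and 164 CPM in Qa-2- (log2 fold change 0.88, and 0.45 without WT replicate 2). Prom1, which encodes the apical membrane protein prominin-1, had a wide gap between the WT mice, with 1315 and 482 CPM, and was at 1529 and 1615 CPM in Qa-2-. Its log2 fold change was 0.81 ± 0.52 (SE), and 0.26 without WT replicate 2. Thus the order of the groups was kept in all 3 genes, while the size of the difference depended on 1 WT library.

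Wfdc2, which encodes a secreted protein with protease inhibitor domains, and Ovgp1, which encodes the oviductal glycoprotein, did not separate the groups. Wfdc2 was at 659 and 372 CPM in WT and at 492 and 758 CPM in Qa-2-, and Ovgp1 at 1.42 and 1.35 CPM in WT and at 1.10 and 1.74 CPM in Qa-2-. Their log2 fold changes were 0.28 ± 0.39 and 0.04 ± 0.41 (SE), the smallest of the 35, and that of Wfdc2 was -0.07 without WT replicate 2. Ovgp1 is known as an oviduct product, and the 5 markers of ciliated oviduct cells summed to 0.274 to 0.875 CPM per library.

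Of the 6 genes used as luminal markers, 4 were tested, and their median log2 fold change was 0.89 (0.70 without WT replicate 2). Cftr (chr6:18170687-18322768), the apical chloride and bicarbonate channel that sets uterine fluid, was at 22.3 and 9.76 CPM in WT and at 48.1 and 79.3 CPM in Qa-2-. Each Qa-2- library was more than 2 times the higher WT library. Its log2 fold change was 1.99 ± 0.47 (SE), the largest of the set, with an adjusted p of 0.255 by edgeR and 0.00103 by DESeq2. Without WT replicate 2 it was 1.52. Msx1 (chr5:37820485-37824583), a homeobox factor of the epithelium before implantation, was at 5.63 and 4.93 CPM in WT and at 9.66 and 13.7 CPM in Qa-2-. The WT libraries were close, and the log2 fold change was 1.14 ± 0.27 (SE; adjusted p = 0.255 by edgeR and 0.0218 by DESeq2).

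Klf5, a Krüppel-like factor of the luminal epithelium, was at 42.1 and 27.8 CPM in WT and at 45.6 and 55.6 CPM in Qa-2-, a log2 fold change of 0.53 ± 0.25 (SE) that was 0.27 without WT replicate 2. Muc1, the membrane mucin of the luminal surface, was at 96.3 and 62.2 CPM in WT and at 82.0 and 164 CPM in Qa-2-, with overlapping groups. The remaining luminal genes were too low to test. Calb1, the calcium-binding protein calbindin, had 13 and 3 counts in WT and 3 and 45 counts in Qa-2-. Ihh, the hedgehog ligand by which the luminal epithelium signals to the stroma, had 2 and 15 counts in WT and 3 and 2 counts in Qa-2-. In both of these genes most counts came from 1 library.

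The 5 regulators had the largest median of the role groups, 1.23 (0.75 without WT replicate 2, again the largest), and 4 of them had both Qa-2- libraries above both WT libraries, against 24.5% of all genes. Esrp2 (chr8:106130319-106136974) and Esrp1 encode RNA-binding proteins that direct epithelial splicing. Esrp2 was at 23.2 and 13.0 CPM in WT and at 42.6 and 54.3 CPM in Qa-2-, and Esrp1 at 42.8 and 18.4 CPM in WT and at 56.5 and 87.1 CPM in Qa-2-. The log2 fold change was 1.42 ± 0.32 (SE) for Esrp2, with an adjusted p of 0.249 by edgeR and 0.00452 by DESeq2, and 1.23 ± 0.45 (SE) for Esrp1. Without WT replicate 2 they were 1.07 and 0.75. Grhl2, a grainyhead-like factor that maintains the epithelial junction genes, was at 35.9 and 16.9 CPM in WT and at 51.6 and 68.7 CPM in Qa-2- (log2 fold change 1.19 ± 0.39, SE; edgeR adjusted p = 0.295; 0.75 without WT replicate 2).

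Elf3 (chr1:135253575-135258568) and Ehf are ETS factors of epithelia. Elf3 was at 67.2 and 48.0 CPM in WT and at 98.6 and 217 CPM in Qa-2-, with a log2 fold change of 1.45 ± 0.42 (SE; adjusted p = 0.275 by edgeR and 0.0156 by DESeq2) and of 1.23 without WT replicate 2. Without Qa-2- replicate 2 it was 0.78, with an adjusted p of 0.901 by DESeq2. Ehf was at 86.9 and 33.6 CPM in WT and at 76.6 and 170 CPM in Qa-2-. Both were highest in Qa-2- replicate 2, and for Ehf the other Qa-2- mouse lay between the WT mice.

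The 6 genes of surface proteases and trafficking had a median of 0.80 in log2 fold change (0.37 without WT replicate 2). In 4 of them both Qa-2- libraries were above both WT libraries, against 24.5% of all genes. None reached an unadjusted p under 0.05 by edgeR, and 7.09% of all genes were higher in Qa-2- by that measure. St14 and Prss8 encode the membrane serine proteases matriptase and prostasin, which act in one cascade. St14 was at 207 and 103 CPM in WT and at 238 and 378 CPM in Qa-2-, and Prss8 at 54.3 and 29.7 CPM in WT and at 55.1 and 81.1 CPM in Qa-2-. For Prss8, WT replicate 1 and Qa-2- replicate 1 were nearly equal. The groups overlapped for their membrane-bound inhibitors. Spint1 was at 201 and 84.1 CPM in WT and at 191 and 283 CPM in Qa-2-, and Spint2 at 517 and 311 CPM in WT and at 437 and 731 CPM in Qa-2-. Rab25, a small GTPase of apical recycling, was at 33.5 and 17.5 CPM in WT and at 38.5 and 58.2 CPM in Qa-2-. Ap1m2, the epithelial subunit of the AP-1 sorting adaptor, was at 51.3 and 23.7 CPM in WT and at 53.8 and 83.3 CPM in Qa-2-. In both, the distance from WT replicate 1 to Qa-2- replicate 1 was smaller than that between mice of one genotype.

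**Figure D2:**
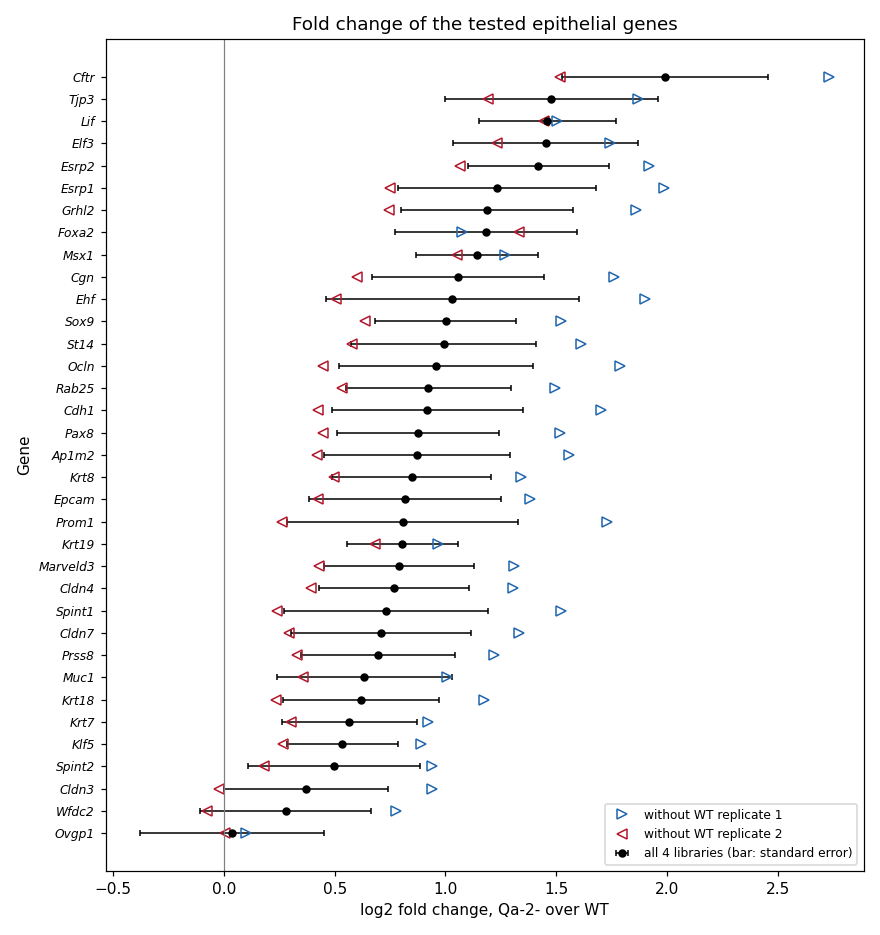
Log2 fold change of Qa-2- over WT for the 35 tested epithelial genes, ordered by size; the points with bars are the estimate and its standard error from all 4 libraries, and the open triangles the estimates without WT replicate 1 or 2. All 35 points lie above 0, with a median of 0.87, which is 1.49 without WT replicate 1 and 0.45 without WT replicate 2.

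Apart from Ovgp1, the log2 fold changes of Lif, Msx1, Foxa2 and Krt19 depended least on the choice of WT library. Their triangles lie near the points in the plot of fold changes. Foxa2 passed the filter only through the Qa-2- libraries and rests on 21 to 47 counts, so its values are a description alone. Without WT replicate 1 and without WT replicate 2, the log2 fold changes were 1.5 and 1.44 for Lif, 1.27 and 1.05 for Msx1, 1.07 and 1.33 for Foxa2, and 0.97 and 0.68 for Krt19. The DESeq2 calls did not follow these estimates, since Lif, Msx1 and Krt19 were called with all 4 libraries but in none of the fits without 1 library. For Prom1 the same pair was 1.73 and 0.26, for Ehf 1.90 and 0.51, and for Ocln 1.79 and 0.45. The first genes had WT libraries close to each other, and the others had WT replicate 1 at more than 2 times WT replicate 2.

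A further 30 genes of epithelial junctions, polarity and regulation were taken for comparison, and 29 were tested. Their median log2 fold change was 0.77, and 28 were above 0 (48.9% of all genes). Of the 29, 20 had both Qa-2- libraries above both WT libraries (24.5% of all genes), and 11 were higher at an unadjusted p under 0.05 by edgeR (7.09% of all genes). The largest values were 1.74 for the claudin gene Cldn23, 1.34 for Evpl, which encodes envoplakin, and 1.29 for the receptor gene Erbb3. The smallest were -0.23 for F11r, which encodes the junctional adhesion molecule A, 0.12 for Jup, which encodes plakoglobin, and 0.49 for Ovol1, a zinc finger factor. F11r and Jup are also expressed by endothelium. In 28 of the 29 genes WT replicate 2 was the lowest library, as it was for 33 of the 35 tested genes of the set.

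When each gene was divided by the geometric mean of these 29 genes in the same library (42.0 and 21.7 CPM in the WT libraries, 51.1 and 59.7 CPM in the Qa-2- libraries), the median log2 change over the 35 genes was 0.09. This scale was added after the data were seen and is given with no test. On it, 9 genes had each Qa-2- library above each WT library, 6 had the reverse order, and 20 overlapped. Of all genes, 1.69% were higher and 67.5% lower by the same measure, because the divisor itself was higher in Qa-2-. The ratio of Cftr was 0.530 and 0.449 in WT and 0.941 and 1.33 in Qa-2-, a fold of 2.29. The other 8 were Esrp2 (1.51-fold), Esrp1 (1.37-fold), Grhl2 (1.32-fold), Cgn (1.22-fold), Ocln (1.17-fold), Sox9 (1.14-fold), Cdh1 (1.13-fold) and Pax8 (1.07-fold). Thus the ratios of both Esrp genes and Grhl2 were higher in Qa-2-, by less than their difference in CPM. The ratio of Esrp2 itself was below 1 in every library, at 0.552 and 0.600 in WT and at 0.833 and 0.911 in Qa-2-. The 6 lower genes were Ovgp1, Wfdc2, Cldn3, Spint2, Klf5 and Krt18, with folds between 0.547 and 0.884. Lif, Tjp3, Elf3, Msx1 and Krt19, which DESeq2 had called in CPM, overlapped between the genotypes on this scale.

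**Figure D3:**
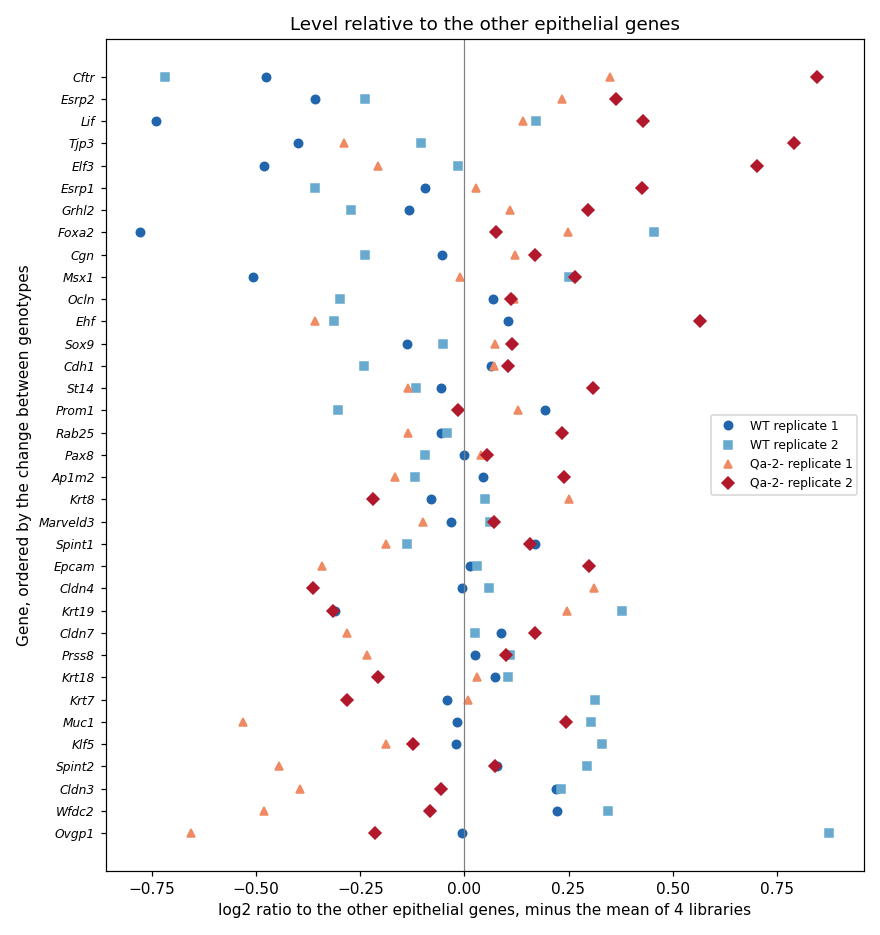
Level of each tested epithelial gene relative to the geometric mean of 29 other epithelial genes in the same library, as log2 ratio minus its mean over the 4 libraries, ordered by the change from WT to Qa-2-; each point is 1 library. Cftr at the top separates the genotypes with a 2.29-fold higher ratio in Qa-2-, the points of 20 genes overlap, and Ovgp1 is lowest with a fold of 0.547.

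A list of 13 further genes that are used for luminal or glandular epithelium was also read, of which 8 were tested. Their median log2 fold change was 0.21, and both Qa-2- libraries were above both WT libraries in 2 of 8, a share near the 24.5% of all genes. The difference from the set was not tested. The largest value was 0.77 for Prss28, an implantation serine proteinase gene of the glands, followed by 0.60 for the estrogen receptor gene Esr1 and 0.41 for the ligand gene Wnt7b. The smallest were -0.34 for Tcf23, -0.13 for the lysophosphatidic acid receptor gene Lpar3 and -0.04 for the progesterone receptor gene Pgr. Esr1, Pgr and Tcf23 are expressed by stroma or muscle as well. The gland gene Cxcl15 had at most 1 count and the luminal growth factor gene Areg at most 2 counts in any library, and Spink1, a secretory protease inhibitor gene, at most 53 counts.

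The summed level of the 37 genes was 6826 and 3664 CPM in WT and 8023 and 9392 CPM in Qa-2-. Markers of other cell types also varied between the libraries, and their part in it was not tested. The 6 smooth muscle markers summed to 25999 and 43141 CPM in WT and to 22746 and 12276 CPM in Qa-2-, so that the library with the lowest epithelial sum had the highest muscle sum, and the reverse. All 6 had a log2 fold change below 0, and in 5 both Qa-2- libraries were below both WT libraries, against 25.4% of all genes. The median of these muscle markers was -0.99, and -0.58 without WT replicate 2, where Myh11 was at 0.08. Endothelial markers, which summed to 1010 and 877 CPM in WT and to 441 and 422 CPM in Qa-2-, were lower in both Qa-2- libraries for 5 of 5 genes. The 6 stromal markers summed to 10170 and 18085 CPM in WT and to 17903 and 9360 CPM in Qa-2-, and the largest part of the sum in every library was Col1a1. Of the 6, Dcn, Hand2, Hoxa10 and Lum were lower in both Qa-2- libraries, Pdgfra was higher in both, and Col1a1 overlapped. Leukocyte markers summed to 183 and 282 CPM in WT and to 249 and 168 CPM in Qa-2-.

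Mesothelium, the outer covering of the uterus, also carries simple keratins. Its 7 markers summed to 134 and 141 CPM in WT and to 105 and 58.5 CPM in Qa-2-, with Wt1, which stroma also expresses, as the gene with the highest level. Lrrn4, Upk1b, Nkain4 and Muc16 passed the filter only through the WT libraries, where they were at 1.99 to 4.83 CPM, and were at 0.113 to 0.507 CPM in Qa-2-. Of the other 3, Msln and Upk3b had both Qa-2- libraries below both WT libraries, in the direction opposite to the keratins, and Wt1 overlapped. Upk3b, a mesothelial uroplakin gene, was at 23.7 and 17.1 CPM in WT and at 2.11 and 1.69 CPM in Qa-2-. Markers of squamous epithelium summed to 7.97 and 3.21 CPM in WT and to 26.4 and 8.03 CPM in Qa-2-, of which Krt4 made 25.2 CPM in Qa-2- replicate 1, while Krt5, Krt14, Krt13, Krt6a and Trp63 were below the filter. Of the fetal tissues, the 9 trophoblast markers summed to 0.747 and 24.6 CPM in WT and to 3.78 and 0.257 CPM in Qa-2-, with 3 of them at 0 in all. The highest trophoblast sum was thus in WT replicate 2, the library with the lowest epithelial sum. The 8 yolk sac markers summed to 987 and 68.3 CPM in WT and to 570 and 44.8 CPM in Qa-2-. Without Rbp4, which was at 977 CPM in WT replicate 1, the yolk sac sums were 9.69 and 53.9 CPM in WT and 563 and 33.3 CPM in Qa-2-. The yolk sac is an epithelium as well.

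**Figure D4:**
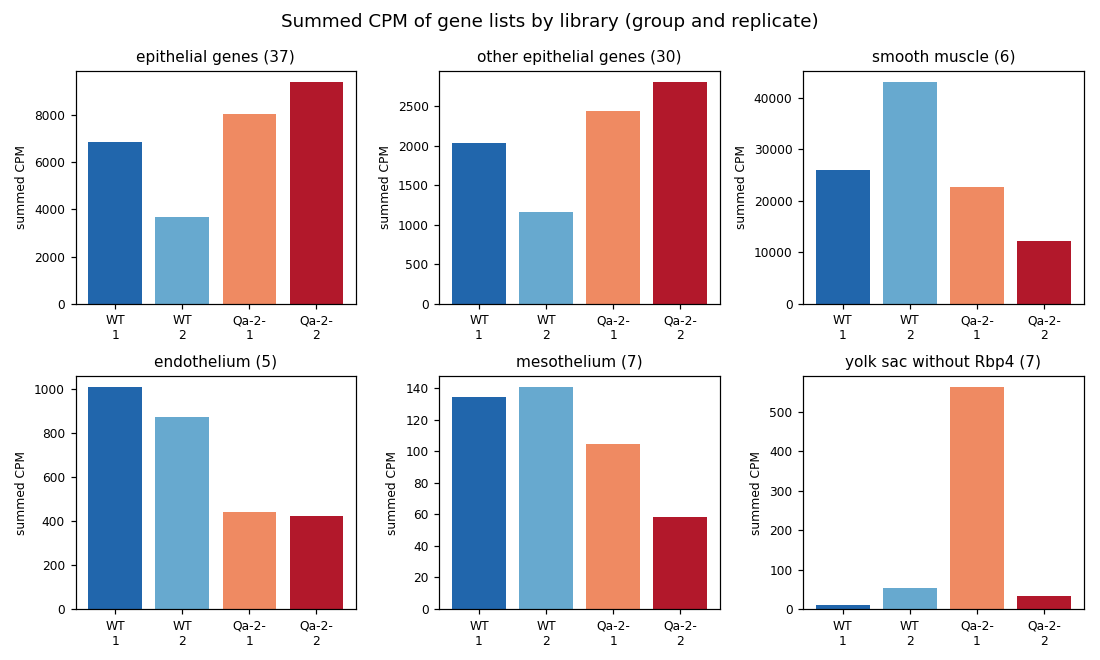
Summed CPM of 6 gene lists in each library (bars from 0, 1 bar per library, number of genes in each title; axes differ between panels). The 37 epithelial genes and the 30 other epithelial genes are lowest in WT replicate 2 (3664 CPM for the 37 genes), where the 6 smooth muscle markers are highest (43141 CPM).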

How the data were processed

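Uteri of 2 WT and 2 Qa-2- mice at E18.5 were measured by poly(A)-enriched, strand-specific paired-end RNA sequencing, and groups follow the strain and title in the labels. The authors deposited raw counts, in read pairs for each gene, from featureCounts 2.0.0 on GRCm38. Per the file headers, pairs were counted on the reverse strand if both ends aligned with mapping quality 3 or more, and those with several positions or genes were left out. The submitters' processing notes also name STAR 2.7.3a and GRCm38.p6. Symbols were found for 55154 of 55421 identifiers in GENCODE M21.

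Genes reaching 1 CPM in 2 or more samples were normalized by TMM and tested with edgeR 4.0.16 (glmQLFit and glmQLFTest, all 4 libraries, genotype only, R 4.3.3), with Benjamini-Hochberg adjustment over 14492 genes. Because the methods name no test for the transcriptome, DESeq2 1.42.0 served as an alternative, beside upper-quartile scaling, library totals, other filters, a replicate block, a robust fit and leaving out each library. The steps were tested on simulated data. Floors of 3 counts cover counting error only. The SE values were taken from the log2 fold change and F statistic of the edgeR test, whose dispersion includes the spread between mice. Replicates of a group differed beyond counting noise (chi-square per gene of 140.88 in WT and 84.6 in Qa-2-), and p-values measure the spread between these 4 mice. An exact permutation test of a single value with 2 against 2 cannot go below 0.33 (two-sided).

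The genes, lists, tests and alternatives were chosen with earlier results of these data known. By the rule for naming, all 37 genes are given, and of each other epithelial list the 3 largest and 3 smallest log2 fold changes. Beyond it, Cxcl15, Areg, Spink1, Krt4, Rbp4 and the mesothelial and the stromal markers are named with their values known. The 21 strings searched in the promoters on both strands were the E-boxes spelled CACCTG and also CACGTG, the ETS letters GGAAGT together with CGGAAG and with AGGAAG and the longer CCGGAAGT or ACCCGGAAG or CCCGGAAGT, the Sp1 or Klf letters GGGCGG as well as CACCC besides GGGNGGGGC and also GGGTGTGGC, the TATA box TATAAA, the forkhead letters TGTTTAC, the cyclic AMP element TGACGTCA, and for grainyhead AACNNGTT as well as AACCGGTT and AACCNGTT together with ACCTGTT and then CTGGTT and the full palindrome. Some of these contain one another.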

Additional observations from a re-analysis of the deposited data

How the results depend on the processing

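With all 4 libraries, the 35 epithelial genes kept a log2 fold change above 0 under each of the 8 alternatives, and 273 of 280 single-gene results stayed on their side of the threshold. The other 7 were the genes called by DESeq2 (7 genes past an adjusted p of 0.05, against 0 by edgeR), and the cause of this difference was not tested. Library totals moved the median of all genes from -0.01 to 0.08 and that of the epithelial genes from 0.87 to 0.96. Leaving out 1 library gave 0 called genes by edgeR in each case, and 0 to 24 by DESeq2 (24 without WT replicate 1, 1 without WT replicate 2, 4 without Qa-2- replicate 1), the DESeq2 fits of this kind having been chosen after seeing the data. The median log2 fold change ranged from 0.45 to 1.49 over these fits, and that of the other epithelial genes from 0.37 to 1.45. A lone library is there assumed to vary like the other group. The log2 fold change of Cldn3 ranged from -0.022 (without WT replicate 2) to 0.94, that of Wfdc2 from -0.075 (without WT replicate 2; -0.06 without Qa-2- replicate 2) to 0.78, and that of Ovgp1 from -0.33 (without Qa-2- replicate 2) to 0.33, so these genes changed sign.

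The labels number the mice 1 and 2 in each genotype, without a shared litter or day. The deviations of same-numbered libraries correlated at -0.37, and with the replicate block 0 of the genes were called, the median was 0.96 and the smallest adjusted p was 0.455 (edgeR). Pairing WT replicate 1 with Qa-2- replicate 2 instead, which was tried with the data in view, also gave 0 called genes, with a smallest adjusted p of 0.0695 (edgeR).

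Depth was 33286390 counts or more per library, and Foxa2, Calb1 and Ihh rested on few counts. Over all genes, edgeR called 0 with 4 libraries and 45 without WT replicate 2, none of them in the set.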
